A study of Mus musculus with 32 samples.

Results

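The genes of translation initiation and elongation factors were followed here through maps of N4-acetylcytidine (ac4C), an acetylated form of cytidine in RNA, in mouse hippocampus. A gene was a member when its symbol began with Eif and a digit from 1 to 6, or with Eef and 1 or 2. Of the 13143 genes named in any of 16 peak lists, 62 met this rule. The rule used names alone, but a member also had to have a peak in at least 1 list. Another 9 protein-coding RefSeq genes met the name rule but had no peak in any list, among them Eif4a1, which encodes the main RNA helicase of cap-dependent initiation, and Eif3j1, an eIF3 subunit.

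All samples were hippocampus of C57BL6/J mice. Homogenate of the whole tissue, taken on day 6, is represented by 6 lists, 3 each for groups C and L. For the synapse fraction each of these groups has a single list on day 1, on day 6 and on day 20. In the peak names of these files C is written Control and L is written Learning. A separate set gave 2 lists of controls and 2 of a conditional knockout, labelled cKO, whose peak names read AAV-Cont and AAV-cKO. The labels used here name neither the deleted gene nor the cells in which it was deleted, and they give no age. Each list came from 1 captured library, and nothing in the labels says that libraries of a group came from separate mice, so every p-value below measures the spread between these libraries, which may be technical.

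Translation starts when eIF2 carries the initiator tRNA to the small ribosomal subunit, eIF3 and eIF1 hold that subunit open, and the eIF4 proteins bring it to the capped end of the mRNA. eIF5B then joins the large subunit, and the elongation factors eEF1 and eEF2 deliver tRNAs and move the ribosome along. In neurons this machinery is a known point of control in memory: phosphorylation of eIF2 blocks its exchange factor eIF2B, and the eIF4E-binding proteins hold back cap binding until mTOR releases them. ac4C is written on RNA by Nat10 and was described by others to bear on mRNA stability and translation, with different accounts of sites near the start codon and within the coding sequence.

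The lists held 15182 to 16971 peaks in homogenate, 5586 to 7293 in synapse, 4446 and 5132 in the controls and 1887 and 422 in cKO. They hold no read counts, so depth per library is unknown. A gene counted as present in a list when at least 1 peak of that list was named for it, and a missing peak may have lain under the authors' threshold. The day 6 synapse list of group L stops within chromosome 7, before 9 members, which have no value in it. Peaks, not expression, were available for a check of the tissue: 3 to 5 of 5 excitatory neuron markers had a peak in each homogenate, synapse and control list and 2 of 5 in each cKO list. The choroid plexus markers Ttr and Folr1 had none in any list. Fewer cells of a type and less RNA per cell cannot be told apart in tissue RNA.

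Several results below turn on peaks at the starts of genes, so the start stretches of 6 members are shown. They are those overlapped in the most lists (Eif3b, Eif3f and Eif5a), that of the gene with the highest-ranking peak (Eif5b), that of a gene with peaks in both cKO lists (Eif4ebp2) and that of a gene with peaks in homogenate alone (Eif2b4). Each gives 100 bases of RefSeq sequence in the GRCm38.p6 build, which is mm10, on the strand of the gene. Capitals mark the first 50 bases transcribed from the annotated start used here, a part that captured RNA can hold. At Eif5a and Eif4ebp2 the annotated gene reaches further upstream, so captured RNA may hold lower-case bases there too. RefSeq windows matched 48 of the 62 members.
Eif3b, chr5:140419255-140419354, plus strand: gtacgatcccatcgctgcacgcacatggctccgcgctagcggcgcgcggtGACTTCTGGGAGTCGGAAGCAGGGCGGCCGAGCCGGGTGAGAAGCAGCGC
Eif3f, chr7:108934365-108934464, plus strand: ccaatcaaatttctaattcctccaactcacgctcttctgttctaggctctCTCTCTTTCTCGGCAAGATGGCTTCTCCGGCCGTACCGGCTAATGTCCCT
Eif5a, chr11:69921226-69921325, minus strand: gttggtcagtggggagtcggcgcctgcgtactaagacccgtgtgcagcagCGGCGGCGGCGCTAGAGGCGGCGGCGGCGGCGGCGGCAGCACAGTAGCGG
Eif5b, chr1:37997960-37998059, plus strand: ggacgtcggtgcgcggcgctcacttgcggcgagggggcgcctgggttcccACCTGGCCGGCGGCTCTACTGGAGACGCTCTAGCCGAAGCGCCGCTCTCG
Eif4ebp2, chr10:61452620-61452719, minus strand: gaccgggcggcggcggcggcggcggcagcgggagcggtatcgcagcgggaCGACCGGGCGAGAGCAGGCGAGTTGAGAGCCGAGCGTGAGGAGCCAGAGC
Eif2b4, chr5:31193090-31193189, minus strand: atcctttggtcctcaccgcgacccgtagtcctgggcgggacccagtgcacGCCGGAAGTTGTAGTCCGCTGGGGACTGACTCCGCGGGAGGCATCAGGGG

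The 50 transcribed bases were overlapped by peaks of 10 lists at Eif3b, 9 at Eif3f, 9 at Eif5a, 8 at Eif4ebp2, 6 at Eif2b4 and 4 at Eif5b. At Eif5b 14 lists had a peak near the start, and most of these peaks began past these bases. A motif of CNN repeated 4 times in a row, where N is any base, has been linked to ac4C in earlier work and was searched on the transcribed strand in these 50 bases, with overlapping matches counted. Eif5a had 6 matches and Eif3f 1, while Eif3b, Eif5b, Eif4ebp2 and Eif2b4 had none. The motif occurred in 38.1% of 63 member windows, in 31.8% of the 22 member windows that peaks of 5 or more lists overlapped, and in 24.7% of the 21263 windows of all protein-coding genes. The windows also differed in base composition, with a median GC content of 66% in members, 67% in the overlapped member windows and 60% in all. These matches describe letters in a window and were not tested against peaks.

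Most members carried peaks in some lists and few in nearly all. A member had a peak in a median of 6 lists, as did all 13143 genes, and 18 members, or 29.0%, had peaks in 10 or more lists, against 23.9% of all genes. Eif5b, Eif3b and Eif3d had peaks in 15 of 16 lists, Eef1a2 and Eif3c in 14, and Eif2s2, Eif4enif1 and Eif4g3 in 13. None had a peak in all 16. At the other end, 9 members, or 14.5%, had a peak in 1 list alone. This is close to the share of all genes, 1707 of 13143. The 9 include core parts of the machinery: Eef1a1 and Eef2, the main elongation factors, and Eif4a2, a helicase. Eif2s1, the subunit of eIF2 that stress kinases phosphorylate, and Eif3e are also among them. The plot of every member by list shows this split within each role.

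**Figure D1:**
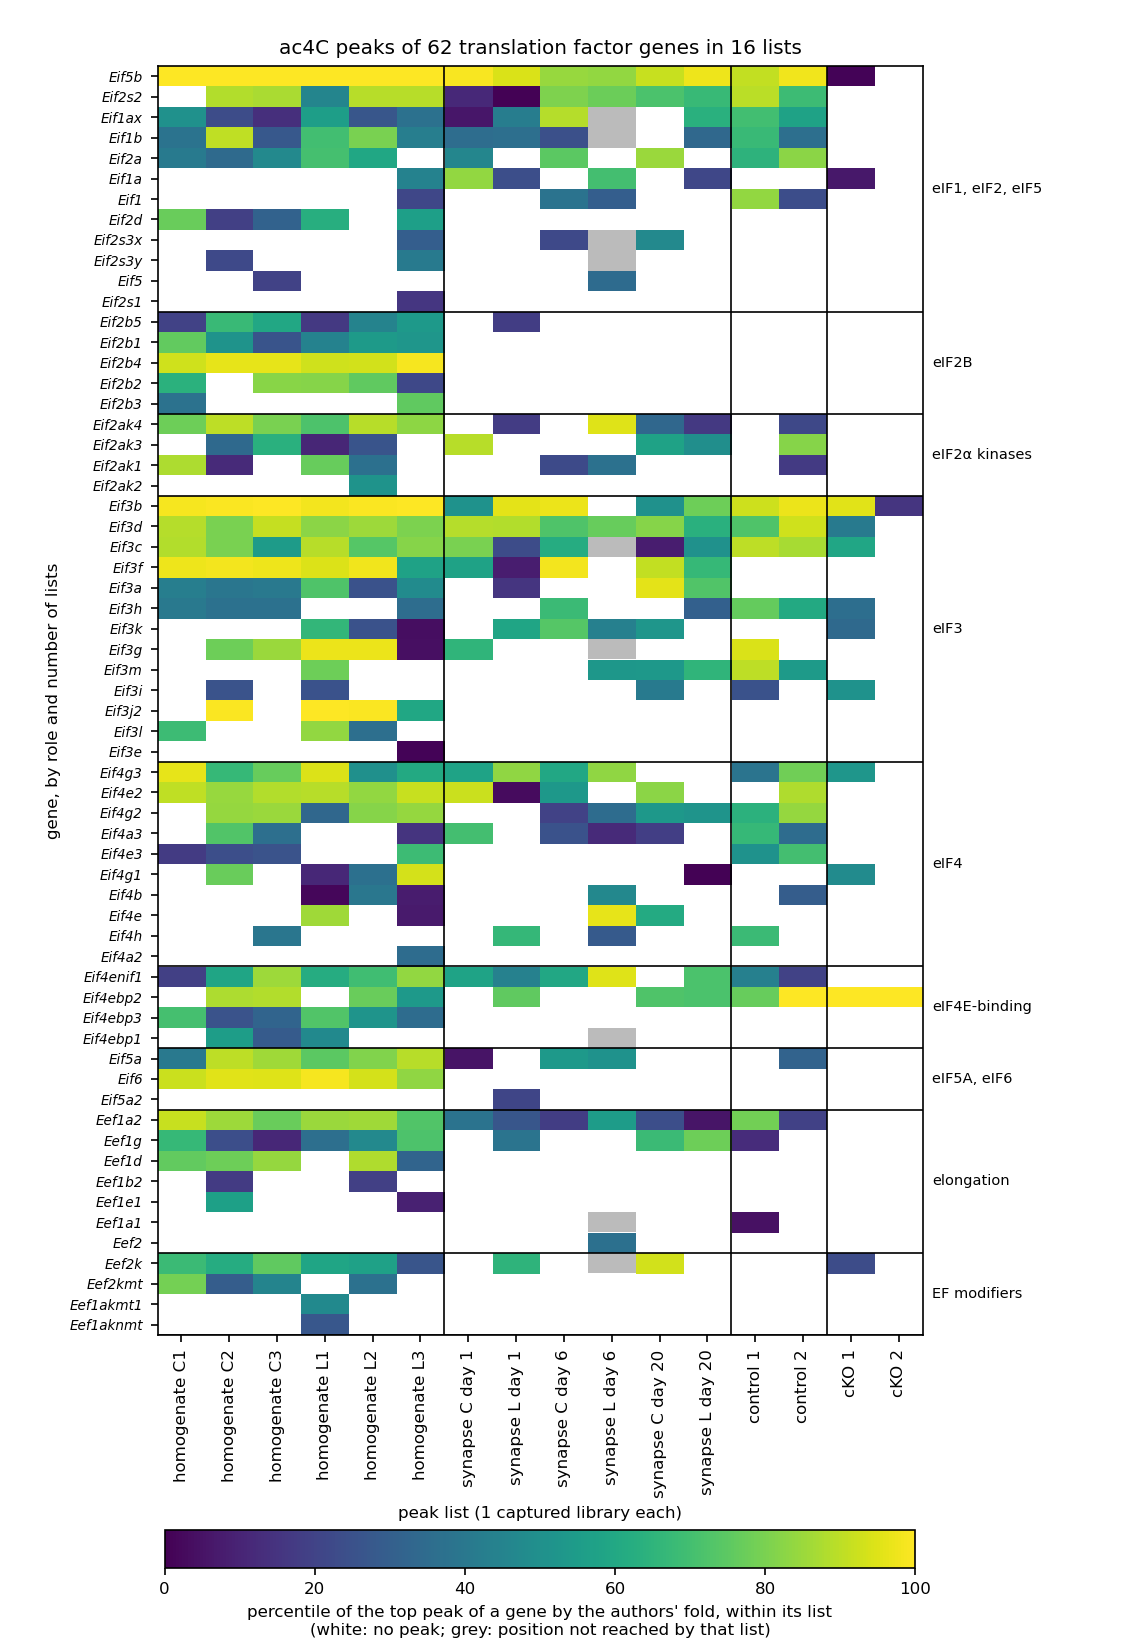
Each row is 1 of the 62 members, grouped by role, and each column is 1 of the 16 peak lists. Colour gives the percentile of the member's top peak by the authors' fold within that list, white marks no peak, and grey marks the 9 members that the synapse L list of day 6 does not reach. Eif5b and Eif3b are near the top of all homogenate lists, and the eIF2B rows are almost empty outside homogenate.

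Among factors of start codon selection and the ternary complex, 3 of 12 members had peaks in all 6 homogenate lists. Over all 62 members 33.9% did, and over all genes 34.8%. Eif5b, the GTPase that joins the ribosomal subunits, had the peak of the highest fold among all members. The percentile of its top peak by the authors' fold, within each list, was 99.9, 100 and 99.9 in the C lists and 100, 100 and 99.7 in the L lists of homogenate. For synapse, taking days 1, 6 and 20 in turn, group C gave 98.9, 84.6 and 91.7 and group L gave 94.4, 83.7 and 97.3. It was 91.0 and 97.7 in the controls and 1.03 in the first cKO list, with no peak in the second. Eif5b thus ranked near the top of every list that held it except the first cKO list. Eif2s2, the beta subunit of eIF2, had peaks in all 6 synapse lists and 5 of 6 homogenate lists. However, 14 of its 28 peaks lay outside the gene. None lay inside it in the synapse lists of day 1, the synapse C list of day 20 or the first L list of homogenate. Eif1a, a start codon scanning factor, had peaks in 4 of 6 synapse lists and 1 of 6 homogenate lists. Pairs of close copies in this group (Eif1 and Eif1b, Eif1a and Eif1ax, Eif2s3x and Eif2s3y) are uncertain, since how reads that match both copies were treated is not given in the sources used here.

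The eIF2B complex recharges eIF2 with GTP and is the target of the integrated stress response. All 5 subunit genes had homogenate peaks, and Eif2b1, Eif2b4 and Eif2b5 had them in all 6 lists. Eif2b4, the delta subunit, ranked at percentiles 92.9, 96.2 and 96.4 in C and 92.9, 93.1 and 98.6 in L. Outside homogenate the 5 genes had 1 peak between them, of Eif2b5 in the synapse L list of day 1, and none in the controls or cKO. Absence of this kind was common, since 57.6% of all genes had no synapse peak and 68.1% none in the controls or cKO. Of the kinases that phosphorylate eIF2, Eif2ak4 (GCN2) had peaks in 11 lists, all 6 of homogenate among them. Eif2ak2 (PKR) had a peak in 1 list.

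The eIF3 scaffold gave 13 members, of which 5 had peaks in all 6 homogenate lists, where 34.8% of all genes did. Eif3b, which encodes the core subunit that binds RNA, ranked at percentiles 98.5, 99.6 and 99.7 in C and 98.1, 99.3 and 99.8 in L of homogenate. For synapse, taking days 1, 6 and 20 in turn, group C gave 51.1, 97.1 and 50.7. Group L gave 95.9 on day 1 and 78.0 on day 20, and its day 6 list had no peak of Eif3b. It ranked at 92.5 and 96.9 in the controls and at 95.4 and 15.4 in cKO. Eif3f also ranked high in homogenate, at 97.3, 98.3 and 97.5 in C and 94.8, 98.0 and 57.5 in L. Eif3j2 illustrates how names and places can part: the gene is on chromosome 18, but all of its 5 peaks lay on chromosome 2, with the region of 3 lists inside its near copy Eif3j1.

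Of 10 members grouped as eIF4 cap-binding, scaffold and helicase factors, Eif4e2 and Eif4g3 had peaks in all 6 homogenate lists. Eif4e2, a cap-binding homologue that represses translation, ranked at 90.5, 84.4 and 88.5 in C and 89.3, 83.6 and 91.7 in L. Eif4e itself, the cap-binding protein, had peaks in 4 lists, with the highest rank, 96.3, in the synapse L list of day 6. Among eIF4E-binding proteins, Eif4enif1, the transporter of eIF4E, had peaks in 13 lists. Eif4ebp2, the main eIF4E-binding protein of the brain, had them in 11. In the separate set Eif4ebp2 ranked at 76.8 and 99.9 in the controls and 99.7 and 100 in cKO.

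Eif6, which keeps the large ribosomal subunit apart until it is needed, had peaks in all 6 homogenate lists and nowhere else, at percentiles 91.8, 95.6 and 95.3 in C and 98.8, 93.6 and 83.4 in L. Eif5a, which helps ribosomes through stalling sequences and carries the modified residue hypusine, had peaks in all 6 homogenate lists, 3 synapse lists and 1 control list. Of the elongation factors, Eef1a2, the eEF1A form of mature neurons, stood apart from the others with peaks in all 12 homogenate and synapse lists and both controls. Its homogenate percentiles were 91.6, 85.4 and 77.0 in C and 85.1, 85.7 and 72.9 in L. Its near relative Eef1a1 had 1 peak in 1 control list, at percentile 4.36, and many processed copies of Eef1a1 in the genome make its reads uncertain. Eef2 had 2 peaks, both in the synapse L list of day 6, the higher at percentile 36.8, while Eef2k, the kinase that inhibits eEF2, had peaks in 9 lists and all 6 of homogenate.

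**Figure D2:**
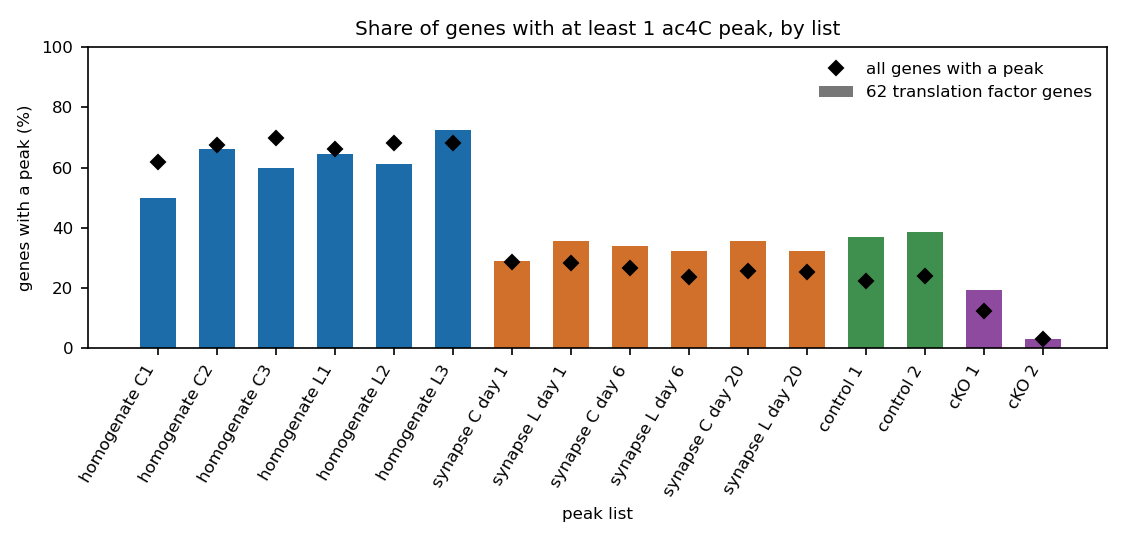
Bars give the percent of the 62 members with at least 1 peak in each list, coloured by sample type, and diamonds the percent of all 13143 genes. Members lie at or under all genes in 5 of the 6 homogenate lists and above them in the synapse and control lists, and also in the first cKO list, with both at about the same level in the second cKO list.

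The share of members with a peak was below that of all genes in most homogenate lists and above it in the other lists. In homogenate 62.4% ± 7.54 of members had a peak (SD, n = 6 lists) against 66.9% ± 2.80 of all genes. In synapse the shares were 33.1% ± 2.46 and 26.4% ± 1.89 (SD, n = 6 lists), and members stood above all genes in each list. In the controls they were 37.1% and 38.7% of members against 22.2% and 24.1% of all genes. In cKO they were 19.4% and 3.23% of members against 12.5% and 3.15% of all genes. Accordingly 37.1% of members had no synapse peak at all, against 57.6% of all genes. These shares count peaks outside the named gene too and are descriptions, with no test over the members. Whether a missing peak goes with a lower transcript level was not tested.

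Some member peaks recurred in the same region in different lists. Overlapping peaks of 1 gene were joined into 228 regions, of which 106 were found in 1 list and 11 in 10 or more lists. An overlap of 1 base was enough, so peaks joined in a region need not all overlap each other. Those 11 regions belong to 9 genes, and 6 of them lie within 500 bases of an annotated gene start. The most widely shared was at the start of Eif3b, chr5:140419256-140420201, in 15 lists, with a median percentile of 96.9 and a highest fold of 541 in the third L list of homogenate. The region at the start of Eif5b, chr1:37998013-37998522, was found in 14 lists with a median percentile of 98.3, and its highest fold was 719 in the second C list. A fold is the authors' own value of a peak and is used only to rank peaks within a list. Eef1a2 carried its region inside the gene, chr2:181146977-181148941, in 14 lists, at a median percentile of 30.7. So wide sharing did not need a high rank. Regions at the starts of Eif4ebp2, chr10:61452171-61453584, and Eif4e2, chr1:87213875-87214660, were found in 11 and 10 lists.

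**Figure D3:**
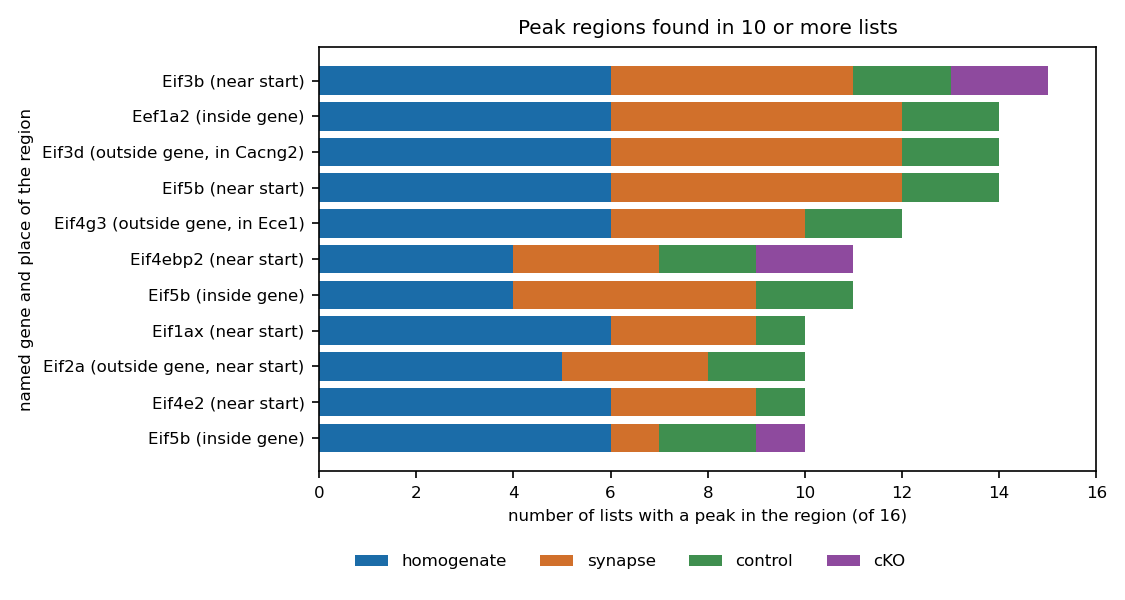
Bars give the number of lists, of 16, that hold each of the 11 regions found in 10 or more lists, coloured by sample type. The regions of Eif3b and Eif4ebp2 at the gene start hold peaks in both cKO lists, and those named for Eif3d and Eif4g3 lie within Cacng2 and Ece1.

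A peak named for a member did not always lie in it. Over all lists 565 of 719 member peaks, or 78.6%, overlapped the span of the named gene, close to the 78.2% of all peaks. By list these shares differed. In synapse 23 of 32, 29 of 37 and 17 of 28 did for C on days 1, 6 and 20. For L they were 19 of 29, 31 of 35 and 19 of 27, against 79.4% to 82.9% of all synapse peaks. In homogenate they were 48 of 61, 64 of 81 and 55 of 70 in C. In L they were 64 of 82, 58 of 70 and 61 of 75, against 72.4% to 79.4% of all homogenate peaks. The 154 member peaks outside formed 49 regions, and 37 of these lay within the span of another protein-coding gene. The clearest case is Eif3d, an eIF3 subunit that can bind caps: its region of 14 lists, chr15:77994556-77995863, lies inside Cacng2, which encodes the AMPA receptor partner stargazin. The region of 12 lists named for Eif4g3, chr4:137962595-137965169, lies inside Ece1. Peaks named for Eef1g in 9 lists lie inside Tut1, and all peaks of Eif4ebp3 lie inside Ankhd1. Eif2a, Eif2s3y, Eif3j2, Eif4ebp3 and Eif5a2 had no peak inside their own span. Counts of members in each list include such peaks, and with peaks inside the gene alone the members present fell to 25 to 40 in homogenate and 12 to 18 in synapse. No share of all genes under that limit is set beside these counts.

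Peaks near gene starts were no more common in members than in all genes but ranked higher than other member peaks. Of the 616 peaks of members with an annotated start, 34.4% lay within 500 bases of one, against 35.0% for all genes. With overlap of the RefSeq window itself, from 250 bases before the start to 50 after it, in place of that distance, 26.6% did. Near a start the median percentile by fold was 73.6 and elsewhere 36.6, and over all genes these medians were 68.2 and 40.4. By list, the near-start median of members was above that of their other peaks in all 6 homogenate lists, 5 of 6 synapse lists and both controls. The exception was the synapse L list of day 1, at 31.7 near a start and 40.3 elsewhere. A start peak was present for 41 of the 48 members with an annotated start.

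**Figure D4:**
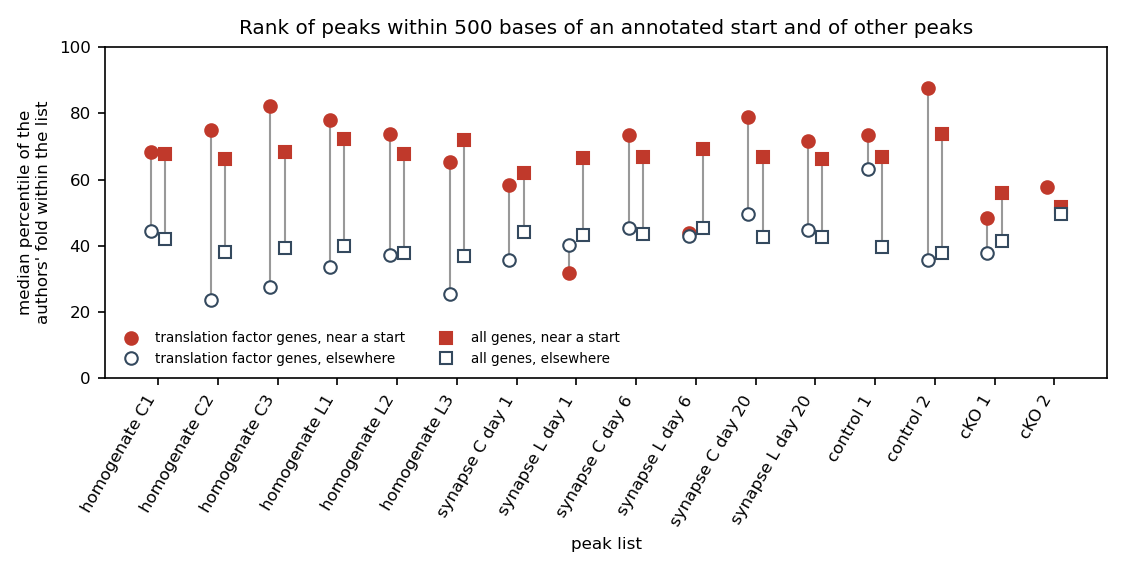
Filled symbols give the median percentile of the authors' fold for peaks within 500 bases of an annotated start, and open symbols that of other peaks, for members (circles) and all genes (squares) in each list. For all genes the start peaks rank higher in every list, and for members in every list with peaks of both kinds but the synapse L list of day 1.

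The homogenate comparison asked which transcripts gained or lost ac4C peaks between groups C and L on day 6. Eif3k, an eIF3 subunit, and Eif4b, which stimulates the eIF4A helicase, were found in each of the 3 L lists and were absent from C. They were 2 of 59 members with a homogenate peak, where 0.271% of 12908 genes had this pattern. No member had the reverse pattern, shown by 0.209% of genes. Eif3k ranked at percentiles 66.3, 25.2 and 3.69 in the L lists, and each L list held a peak in the same region at the gene start, chr7:28981253-28981889. Eif4b ranked at 1.57, 39.7 and 7.75, with its 3 peaks in 3 different places along the gene. Both are thus low in most L lists. Eif3k also had peaks in 2 C lists and 2 L lists of synapse. Eif4e3, an atypical cap-binding protein, went the other way, with peaks in all 3 C lists and 1 L list.

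Fisher's exact test on presence gave p = 0.1 for Eif3k and Eif4b, the smallest that 3 against 3 lists allow, and 1 after Benjamini-Hochberg adjustment. No gene had an unadjusted p under 0.05 or passed the adjusted threshold. A test within pairs of lists with the same number cannot give a p below 0.25, so it could call no gene either. With peaks of a fold of at least 5 alone, 0 members had a peak in L alone. Without the second C list 4 did, Eif3j2 and Eif4g1 being the others, where 1.13% of all genes did. In C alone there was 1 member (Eef2kmt) without the second L list, against 1.0% of all genes, and 2 (Eif3h and Eif4e3) without the third, against 0.522%. The number of members with a peak was 31, 41 and 37 in the C lists and 40, 38 and 45 in the L lists, a mean of 36.3 ± 5.03 and 41.0 ± 3.61 (SD, n = 3 lists each). The groups overlapped. By list number the difference was 9, -3 and 8 members. All genes numbered 8722 ± 551 in C and 8860 ± 146 in L.

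The synapse comparison set L against C with 1 list of each per day, so no difference between them has a replicate check within a day. The lists also differed in form. The shortest peak had 125, 150 and 175 bases in L on days 1, 6 and 20, and 200 in each C list. Median lengths were 197, 188 and 229 bases in L and 381, 278 and 289.5 in C. Group and list form therefore cannot be told apart. On day 1, 9 of 27 members had a peak in L alone, where 17.9% of all genes did, and 5 in C alone, where 19.5% did. Eef1g, Eif2ak4, Eif3a and Eif4ebp2 were among the first and Eif2a, Eif3g and Eif5a among the second. For day 6, up to the point where the shorter list ends, 8 of 25 members were found in L alone (23.0% of all genes), while 5 were found in C alone (17.5%). Eif4e, Eif1a, Eif5 and Eef2 were among the first, and Eif3b, Eif3f and Eif4e2 among the second. On day 20, 6 of 28 were found in L alone (22.6%), Eif4enif1 and Eif4g1 among them. The reverse held for 8 (23.2%), which include Eif4e and Eef2k. Eif4e thus appeared in opposite groups on days 6 and 20, but its day 20 peak lay outside the gene, as did that of Eef2k. With peaks inside the named gene alone, neither was in C alone on day 20.

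Over the 3 days, 0 of 33 members had a peak in every L list and no C list, a pattern of 0.639% of genes. Eif2a, an initiation factor for non-standard start codons, alone had the reverse pattern, found in 0.596% of genes. Here too group and list form cannot be told apart. The percentiles of Eif2a in C were 45.9, 74.7 and 85.0 on days 1, 6 and 20 (Fisher's exact p = 0.1 over days, 1 after adjustment). The same region, chr3:58525147-58525807, held its peaks in 10 lists and ends 14 bases before the annotated start of Eif2a, within the span of Serp1. Eif2a had no peak inside its own span, so with such peaks alone the count was 0. In homogenate that region was present in all 3 C lists and 2 L lists. With a fold of at least 5 the call passed from Eif2a to Eif4e2. Leaving out day 1 or day 6 gave 2 members of C alone, with Eif4e2 or Eif4a3 beside Eif2a, where 2.37% and 3.89% of all genes had this pattern. Leaving out day 1 or day 20 gave 1 or 2 of L alone, where 3.58% and 3.18% of all genes had it.

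The comparison of synapse with homogenate is the one in which the number of lists allows a gene to pass the adjusted threshold. Eif2b1 and Eif2b4 of the eIF2B complex, Eif4ebp3 and Eif6 had peaks in all 6 homogenate lists and none of 6 synapse lists (Fisher's exact p = 0.00216, the smallest possible, and 0.0151 after Benjamini-Hochberg adjustment over 13115 genes). They were 4 of 61 members, or 6.56%, where 14.3% of all genes were called in this direction. No member was called as more often present in synapse, against 0.0457% of genes. Eef1d, Eif2b2, Eif2b5 and Eif2d came next, with an adjusted p of 0.0638 in the same exact test. The synapse lists hold fewer peaks and span 3 days, while the homogenate lists are of day 6. Markers with a peak tended to be fewer in synapse over the cell types, as all genes with a peak were (66.9% in homogenate, 26.4% in synapse). Of 5 endothelial and mural markers, 2 to 3 had a peak in each homogenate list and 0 to 1 in each synapse list. Of 4 choroid plexus markers these numbers were 1 to 2 and 0, and of 5 excitatory neuron markers 3 to 5 and 3 to 4. For oligodendrocytes these numbers were 4 to 5 and 1 to 4 of 5, for microglia 3 to 5 and 2 to 4 of 5, for interneurons 1 to 4 and 1 to 2 of 4, and for astrocytes 4 to 5 and 3 to 5 of 5. Their part in the result was not tested. Presence was higher in homogenate for 45 members, or 73.8%, and in synapse for 10, or 16.4%, against 80.1% and 8.56% of all genes. Eif2s2, Eif1a, Eif3k, Eif4a3 and Eif3m were among the 10. These counts include peaks outside the named gene. Such peaks were 14 of 28 for Eif2s2, 8 of 16 for Eif4a3 and 2 of 7 for Eif3m, with none for Eif1a and Eif3k.

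**Figure D5:**
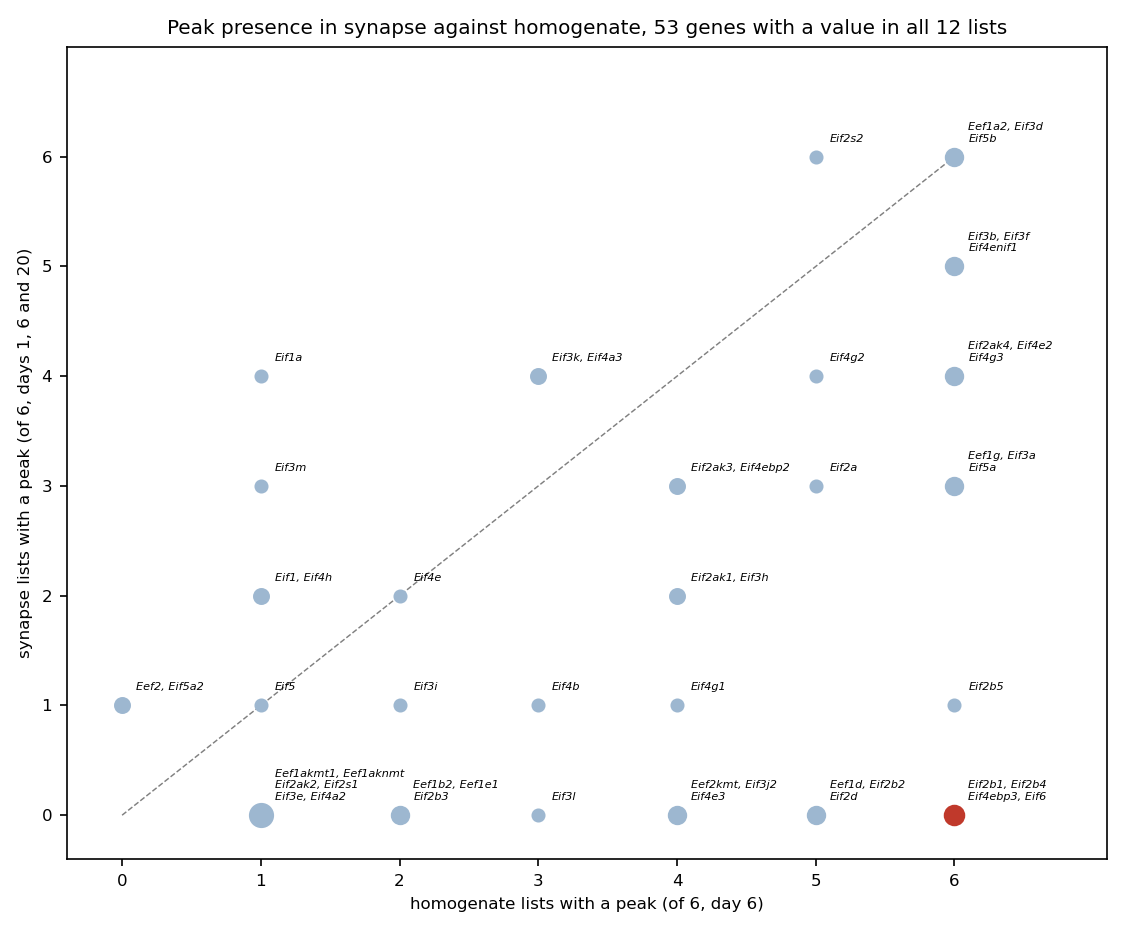
Each point places members by the number of homogenate lists (x axis, of 6) and synapse lists (y axis, of 6) with a peak, for the 53 members with a value in all 12 lists. Point area grows with the number of members, the dashed line marks equal numbers, and the red point holds the 4 genes that passed the adjusted threshold.

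The 4 called genes rest on their peaks in different ways. Eif2b4 and Eif6 carried a region in all 6 homogenate lists that overlaps the gene and runs past one end of it, chr5:31191466-31194160 at a median percentile of 93.1 and chr2:155825946-155827252 at 94.4. The Eif2b4 region also overlaps the span of its neighbour Snx17. Peaks named for Eif4ebp3 lie in Ankhd1, and those of Eif2b1 lie in part in Ddx55, so with peaks inside the named gene alone 2 members were called, Eif2b4 and Eif6. The same 2 remained with a fold of at least 5 and with the same number of top peaks from each list. On day 6 alone, 7 of 52 members had peaks in all 6 homogenate lists and neither synapse list (16.7% of all genes), namely Eef1g, Eif2b5 and Eif3a in addition to the 4. Their Fisher's exact p was 0.0357, with 0.212 after adjustment. Of the 17 members in all 6 homogenate lists in the range reached, 7 were absent from both synapse lists, or 41.2%, where 47.4% of all such genes were. No member had the reverse pattern on day 6, against 0.192% of genes, and without the synapse C list or the third homogenate L list 1 member did, Eef2 or Eif1, against 0.652% and 0.437% of genes.

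The cKO comparison asked which ac4C peaks of control tissue were missing in the knockout. Of 33 members with a peak in this set, 11 had one in both controls and neither cKO list, where 33.8% of all genes did. They were Eif1, Eif1ax, Eif1b, Eif2a and Eif2s2 of start codon selection, Eif3m, the eIF4 genes Eif4a3, Eif4e3 and Eif4g2, Eif4enif1 and Eef1a2. No member had the reverse pattern, found in 1.0% of genes. Among the 18 members in both controls, 11 were missing from both cKO lists, or 61.1%, against 61.4% of all such genes. The share of members lost was close to that of all genes. Fisher's exact p was 0.333 for each, the smallest that 2 against 2 lists allow, 0.959 after adjustment, and no gene had an unadjusted p under 0.05.

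Eif3b and Eif4ebp2 alone had peaks in all 4 lists of the set, all within 500 bases of the gene start. In the first pair 3 of 37 member peaks of the control were overlapped by a cKO peak, those being of Eif3b, Eif3h and Eif5b. That is 8.11%, against 13.2% of all control peaks. In the second pair 2 of 41 were, of Eif3b and Eif4ebp2, or 4.88% against 5.4%. Members present numbered 23 and 24 in the controls and 12 and 2 in cKO. The second cKO list has 422 peaks of at least 500 bases each, while the shortest peak of its control has 200 bases, so knockout and list form cannot be told apart. Markers with a peak also tended to be fewer in cKO over the cell types, as all genes were. Astrocyte markers numbered 3 of 5 in each control list and 0 to 1 in cKO, oligodendrocyte markers 3 and 1 of 5, excitatory neuron markers 3 to 4 and 2 of 5, microglial markers 2 to 3 and 1 to 2 of 5, interneuron markers 1 and 0 of 4, and endothelial and mural markers 0 to 1 and 0 of 5. Their part in the result was not tested. Without that cKO list 4 of 33 members (Eef2k, Eif1a, Eif3k and Eif4g1) were in cKO alone, where 9.57% of all genes then were. Without the first control list 17 of 29 were in control alone, where 55.0% of all genes were. With the 422 top peaks of each list, 1 of 5 members was in control alone, Eif5b, against 8.05% of all genes.

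Other genes of translation control were set beside the members, from a list of 42 that holds the poly(A)-binding proteins, mTOR signalling, release factors and mRNA-binding regulators such as Fmr1, the fragile X protein. Of these 40 had a peak, in a median of 10.5 lists against 6 for the members and 6 for all genes. This list was chosen with earlier results known, so the difference is a description. Fmr1 and Tsc2, an inhibitor of mTOR signalling, had peaks in 15 lists, and Akt1, Cpeb4, Cyfip2, Larp1, Mtor and Ppp1r15b in 14. Between C and L of homogenate, 0 of 39 had peaks in all lists of 1 group and none of the other. Over all genes 0.271% had this pattern for L and 0.209% for C. In synapse over the 3 days Rps6kb1, the S6 kinase downstream of mTOR, had a peak in every C list and no L list. It was 1 of 27, where 0.596% of all genes had this pattern, and 0 had the reverse, against 0.639%. Eefsec, the elongation factor for selenocysteine, and Mknk1, a kinase of eIF4E, were more often present in homogenate than in synapse (adjusted p = 0.0151, the same exact test). They were 2 of 40, where 14.3% of all genes were called in this direction. In the separate set 9 of 28 were in both controls and neither cKO list, where 33.8% of all genes were. Cpeb4, Etf1, Gspt1 and Gspt2 were among the 9.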

How the data were processed

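Captured RNA was analysed from 16 of the 32 libraries of the series, each with its own peak list. The 16 inputs were not analysed here. Per the labels' protocols, total RNA was cut to about 200 nt and captured with an ac4C antibody. Per the submitters' processing notes, reads were handled with HISAT2 2.0.4, cutadapt 1.9.3 and FastQC, and mm10 is the build they name. Which program called peaks is not given in the sources used here. Columns for a ratio over background (fold enrichment), a q-value and a p-value, both as -log10, were deposited for every peak, per the file headers. The lowest deposited fold was 2.0 and the lowest -log10 q 1.3.

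Of 13302 gene names, 12937 were current in RefSeq GRCm38.p6, 214 were updated through a synonym of 1 gene and 151 were kept. Updating added 1 member, Eef1aknmt, to the 61 named as deposited. In file order the day 6 synapse list of group L stops on chromosome 7, at base 118984776, and genes beyond it had no value there. Peaks of the first L list of homogenate carry the number 2 in their names, and the list was kept under its label. Near copies and overlapping genes can share reads.

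Presence of a peak was compared by Fisher's exact test per gene, two-sided, with Benjamini-Hochberg adjustment over all genes and a threshold of 0.05 (Python 3, scipy), or by the pattern of all lists in 1 group and none in the other. Percentiles rank the authors' fold within a list. Genes were named by role, by call and by number of lists. The members, gene lists and tests were chosen with earlier results of these data known. An adjusted p can pass with 6 against 6 lists only because many genes share the same extreme pattern.

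Whether list numbers pair the homogenate lists was checked from deviations of presence from group means over 12908 genes. For same-numbered lists the correlation was 0.314, 0.221 and 0.116. All exceed 0.1, which was taken as a sign that the numbers pair the lists. The reported test is the unpaired one, and the block by number was an alternative. This rests on the data, since the labels give numbers alone. Alternatives were a fold of at least 5, a -log10 p of at least 10, equal numbers of top peaks, peaks inside the named gene, deposited symbols, no limit on the range, leaving out each list, and a block by list number.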

Additional observations from a re-analysis of the deposited data

How the results depend on the processing

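Of the recomputed values, 148 kept within 1.5 times the reported count or within its error, and 33 moved, of which many are counts of 0 to 2 members. Shares of all genes under the same setting stand in brackets. With a fold of at least 5 the homogenate count of L alone fell from 2 to 0 (0.278%), the day 1 synapse counts became 5 for L (29.5%) and 8 for C (27.4%), and the day 20 count of C alone 5 (31.4%). The calls for homogenate over synapse were then 2 (8.21%), the day 6 counts 2 for homogenate alone (9.45%) and 1 for synapse alone (0.653%), and the count of control alone 4 (19.0%). The count of C alone over days stayed at 1, but for Eif4e2 in place of Eif2a. With a -log10 p of at least 10 the day 1 count of C alone was 9 (25.5%) and the count of C alone over days 2 (0.618%). With equal numbers of top peaks the counts were 1 for L alone in homogenate (0.234%), 3 for C alone over days (0.65%), 2 for homogenate over synapse (4.71%), 2 and 1 on day 6 (6.5% and 3.25%) and 1 for control alone (8.05%). With peaks inside the named gene they were 0 for C alone over days (0.705%), 2 for homogenate over synapse (11%), and 4 and 1 on day 6 (13.8% and 0.268%). Without the limit on the range the day 6 count of C alone was 9 (28.4%). Leaving out each list gave, in homogenate, 2 to 4 members for L and 0 to 2 for C, 0 to 1 in synapse alone on day 6, 0 to 4 in cKO alone and 11 to 17 in control alone. Leaving out each synapse day gave 0 to 2 for L and 1 to 2 for C. The share of start peaks moved from 34.4% to 26.6% (25.6%) under the window, an alternative chosen after seeing the data, as was leaving out the first C and L homogenate lists. A block by replicate number gave 0 calls, but its smallest possible p is 0.25 in homogenate and 0.5 in the cKO set, so no gene could pass and the 0 says nothing on stability. In the cKO set same-numbered lists correlated at 0.0384. Depth is unknown, so a peak under the authors' threshold cannot be told from no ac4C. The causes of these shifts were not tested.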

Other observations

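The eIF4G family genes differed in how many lists held peaks named for them, but less so for peaks inside the gene. Eif4g3, a scaffold of the cap-binding complex, had peaks in 13 lists, all 6 of homogenate among them. However, 22 of its 28 peaks lay outside the gene. A peak inside the gene was held by 6 lists for Eif4g3, 8 for Eif4g2 and 6 for Eif4g1. Eif4g2, which drives translation without the cap-binding protein, had peaks in 11 lists, 4 of synapse and both controls among them, while Eif4g1, the main scaffold of the cap-binding complex, had peaks in 6, of which 4 were of homogenate. In the third L list of homogenate Eif4g1 ranked at percentile 93.5, against 77.2 in the second C list and 11.1 and 37.0 in the first and second L lists. Eif3g, a subunit that scans with eIF3, ranked at 97.1 in both the first and second L lists, 77.9 and 84.8 in C lists 2 and 3, and 4.12 in the third L list. The third L list held peaks of Eif2s1, Eif3e and Eif4a2 that no other list held, at percentiles 15.7, 1.0 and 35.3. It had the most members present, 45. This list also had the fewest peaks in homogenate, 15182, with a median length of 301 bases against 413 to 445 in the others. Without it the mean difference of L minus C was 2.67 members, against 4.67 with it.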
